A study of Mus musculus with 16 samples.

Results

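The 50 genes described here belong to the ATP-binding cassette (ABC) transporter family of the mouse and were taken from the RNA-seq count table of sorted brain endothelial cells (bECs) as every gene whose symbol is Abc followed by a subfamily letter from a to g and a number. They were 50 of the 37003 genes in the table, and all 50 entered the test of 31085 genes. The 3 efflux pumps of the blood-brain barrier, Abcb1a, Abcg2 and Abcc4, were kept apart from the other 47 members. Within the family a gene was included by its name alone, whatever its values, so ABC proteins under other names are not among the 50.

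The bECs came from 16 libraries in 4 groups of 4. YT-iKO mice carried the tamoxifen-inducible Pdgfb-iCreER-eGFP transgene with Yap and Wwtr1 (Taz) floxed on both alleles, and CTRL mice were littermates that had the floxed alleles but lacked the transgene. Adult mice of both sexes and both genotypes received tamoxifen, then 30 min of middle cerebral artery occlusion (MCAo) with reperfusion or a sham operation, and their bECs were sorted as DAPI-, CD45- and CD31+ cells 72 h after surgery. Each library held the pooled cells of several mice, so the spread between libraries is a spread between pools. Pdgfb-driven Cre acts in endothelium and is not restricted to the brain. The comparisons ask what MCAo and the loss of endothelial YAP and TAZ do to bEC transcripts.

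Libraries held 11418262 to 23074547 counts. The targeted genes followed the labels: Wwtr1 was 264 ± 9.66 CPM (counts-per-million) in CTRL sham and 72.0 ± 20.9 in YT-iKO sham (SD, n = 4), and Yap1 was 112 ± 0.502 and 49.2 ± 9.73. The 9 endothelial markers summed to between 9209 and 19770 CPM per library and the 9 pericyte markers to between 492 and 1444. Microglia and macrophage, neuron and oligodendrocyte lists each stayed under 32 CPM in total, astrocyte markers at 48.4 to 98.5 and smooth muscle markers at 30.1 to 81.4. Receptor genes of smell, pheromone sensing and taste, which are not expected in bECs, carried together 0.0219 to 0.549 CPM per kilobase of exon, a density read as stray signal. It was highest in YT-iKO MCAo replicate 2 and YT-iKO sham replicate 3. A density of that size, spread evenly over all exons, would amount to between 0.257% and 6.45% of a library's counts. In pooled bulk RNA, fewer cells of a type and less RNA per cell cannot be told apart.

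ABC proteins use the energy of ATP to carry substrates across membranes, and most of them export lipids, sterols, drugs or conjugated metabolites. In brain capillaries P-glycoprotein (Abcb1a), the breast cancer resistance protein (Abcg2) and Mrp4 (Abcc4) sit mainly in the luminal membrane and return drugs, toxins and organic anions to the blood. Rodents carry another P-glycoprotein gene, Abcb1b, next to Abcb1a, while Abca1 and Abcg1 hand cholesterol to lipoproteins and are classic targets of the liver X receptors (LXR).

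A member was read as above background in a group when its CPM per kilobase exceeded the 95th percentile of 1299 receptor genes of the same library in all 4 libraries. By that rule 27 of the 50 members were above background in all 4 groups, 10 in some groups and 13 in none. All 3 pumps were in the first class, with 24 of the other 47 members. Of the 10 other multidrug and conjugate exporters 5 were above background in every group, of the 22 sterol and lipid transporters 7, of the 5 mitochondrial and lysosomal ABCB proteins 4, of the 4 ABCD proteins of peroxisomes and lysosomes 3, and of the 2 sulfonylurea receptors 1. The 4 ABCE and ABCF proteins, which have no membrane domain and act on ribosomes, were all above it.

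**Figure D1:**
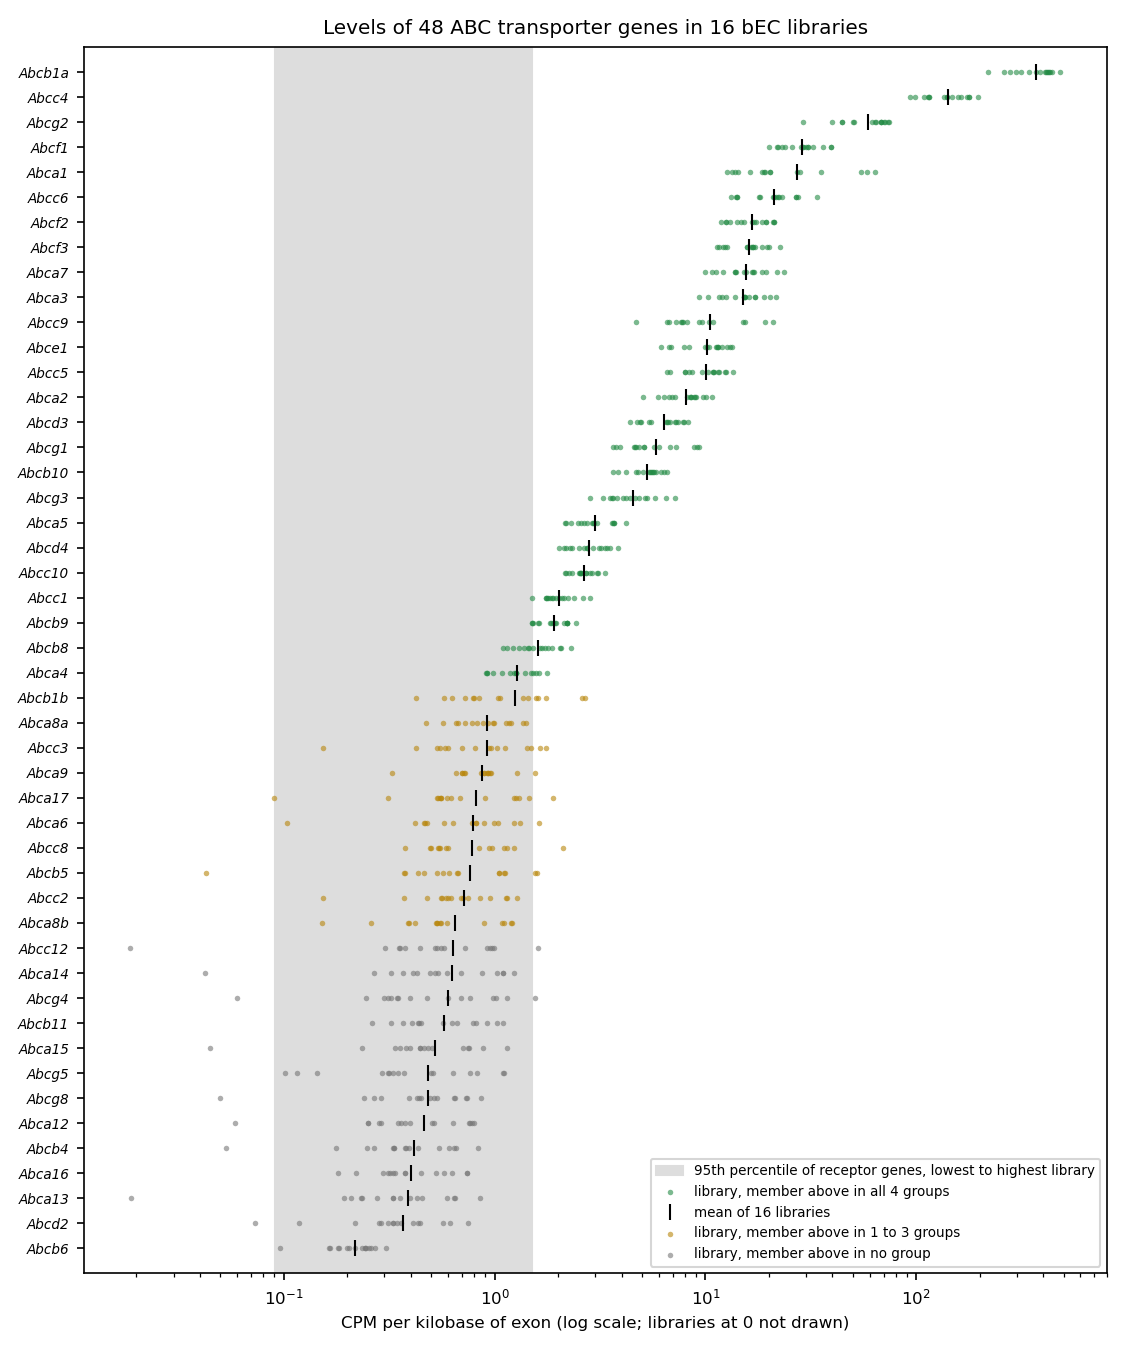
CPM per kilobase of exon of 48 members in 16 libraries (log scale; 1 point a library, black bar the mean of 16), ordered by mean. The grey band spans the libraries' 95th percentiles of receptor genes, scaled by library totals alone, while the points also use TMM factors. The means of the 3 pumps lie above those of every other member drawn, though single libraries of Abcg2 lie below single libraries of Abca1, and the members classed as above background in no group lie within or to the left of the band apart from single libraries.

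The pumps were the 3 most abundant members per length. Abcb1a (chr5:8660077-8748575, plus strand, GRCm38) averaged 369.9 CPM per kilobase over 16 libraries and was at least 208 times the background threshold in every library. Abcc4 (chr14:118482692-118706219, minus strand) averaged 140.9 CPM per kilobase and was at least 88.4 times the threshold. Abcg2 (chr6:58584523-58695676, plus strand) averaged 58.9 CPM per kilobase and was at least 27.6 times the threshold. Together the 3 pumps made up 63.1% to 73.2% of the summed CPM per kilobase of all 50 members (median 70.1%). Abcb1a shares 17.6% of its 50-base stretches with other members, chiefly Abcb1b and Abcb4, and 10.1% of its exon bases overlap the antisense gene Gm42686. How reads that fit more than 1 gene were counted, and with which strand setting, is not given in the sources used here, so the levels of Abcb1a and Abcb1b carry that uncertainty.

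The members that followed were of several kinds. Abcf1, which acts in translation initiation, averaged 28.8 CPM per kilobase, and its relatives Abcf2 and Abcf3 averaged 16.58 and 16.01. Abca1, the cholesterol exporter, averaged 27.2 CPM per kilobase, Abca7, a phospholipid transporter, 15.6, and Abca3, known for surfactant lipid loading in the lung, 15.1. Among the other exporters Abcc6, the gene altered in pseudoxanthoma elasticum, averaged 21.1 CPM per kilobase, Abcc5, a nucleotide exporter, 10.03, and Abcg3, a rodent relative of Abcg2, 4.55. Abcc9, the sulfonylurea receptor that forms potassium channels with Kcnj8 and is known from pericytes, averaged 10.5 CPM per kilobase.

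The ABCD and organelle ABCB transporters averaged 8.04 CPM per kilobase or less. Abcd3, a peroxisomal carrier of fatty acids, averaged 6.38 CPM per kilobase and the lysosomal cobalamin protein Abcd4 2.81. In mitochondria and lysosomes Abcb10 averaged 5.28 CPM per kilobase and the lysosomal peptide carrier Abcb9 1.91. Abca4, at 1.27 CPM per kilobase, was the lowest member above background in every group, and its smallest ratio to the threshold was 1.53.

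The 10 members above background in only some groups had median ratios to the threshold, over 16 libraries, between 1.06 and 1.71. Abcb1b was above it in both MCAo groups and in 14 of 16 libraries, with ratios from 0.865 to 21.3. Abcc3, a basolateral exporter of conjugates in liver and gut, was above it in the same 2 groups, also in 14 libraries. Abca8a and Abca9 were above it in 3 groups, all but YT-iKO sham, and Abcc2 in 3 groups, all but CTRL sham. Abca17 and Abcc8 passed only in CTRL MCAo, Abca6 only in YT-iKO sham, Abcb5 only in CTRL sham and Abca8b only in YT-iKO MCAo. The threshold differs between libraries, and these memberships were not tested as differences between conditions.

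The 13 members above background in no group were Abca12, Abca13, Abca14, Abca15, Abca16, Abcb4, Abcb6, Abcb11, Abcc12, Abcd2, Abcg4, Abcg5 and Abcg8. They include the bile canalicular transporters Abcb4 (phosphatidylcholine) and Abcb11 (bile salts) and the sterol pair Abcg5 and Abcg8 of liver and intestine. Abcb4, which lies beside Abcb1b on chromosome 5, averaged 0.413 CPM per kilobase and exceeded the threshold in 0 of 16 libraries. Abcc12 and Abca14 exceeded it in 9 libraries and Abcg4 and Abcb11 in 7, though in no group in all 4. Abcb6 had the lowest mean, 0.217 CPM per kilobase, and shares 55.2% of its exon bases with Gm29253 on the same strand, and how reads from that stretch were counted is not given. These 13 were not separated from stray reads by this rule at this depth, which does not show that they are absent.

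Promoter windows from RefSeq (GRCm38.p6) were found for 38 of the 50 members, 45 windows in all, of which the 250 bases before the start were searched on both strands. Shown are the windows of Abcb1b and Abca1, the members with the largest changes after MCAo, and that of the pump Abcc4 at its annotated start. Capitals mark matches to GGGCGG (GC box, in 32.7% of 32851 windows), CCAAT (33.8%), TATAAA (12.4%), GGAATG (the TEAD motif, 12.6%), TGANTCA (AP-1, 6.7%), AGGTCA (LXR half-site, 4607 windows), TTCNNNGAA (STAT, 7.0%) and the repeat GGTNA and GGTCA with 5 bases between them, letters chosen to take in the LXR direct repeat known from the Abca1 promoter (58 of 32851 windows). Where a window holds none of a motif's letters, that says only that they are not in these 250 bases.

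Abcb1b, chr5:8797897-8798146, plus strand: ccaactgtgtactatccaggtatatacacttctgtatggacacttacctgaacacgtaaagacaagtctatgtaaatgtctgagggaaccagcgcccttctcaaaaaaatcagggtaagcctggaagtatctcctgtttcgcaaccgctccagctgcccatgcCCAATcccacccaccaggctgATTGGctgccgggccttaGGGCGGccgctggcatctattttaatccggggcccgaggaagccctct
Abca1, chr4:53159896-53160145, minus strand: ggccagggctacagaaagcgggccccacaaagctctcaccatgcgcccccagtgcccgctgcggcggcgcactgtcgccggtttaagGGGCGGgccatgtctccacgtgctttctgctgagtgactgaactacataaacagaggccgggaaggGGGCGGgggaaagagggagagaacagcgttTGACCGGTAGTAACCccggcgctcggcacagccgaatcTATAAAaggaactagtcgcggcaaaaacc
Abcc4, chr14:118706220-118706469, minus strand: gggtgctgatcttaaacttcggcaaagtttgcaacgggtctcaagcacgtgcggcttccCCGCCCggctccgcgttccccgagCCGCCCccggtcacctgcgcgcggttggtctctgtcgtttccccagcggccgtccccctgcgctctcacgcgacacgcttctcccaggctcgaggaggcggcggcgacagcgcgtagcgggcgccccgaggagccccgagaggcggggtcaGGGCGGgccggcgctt

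The Abcb1b window held 2 CCAAT matches and 1 GC box, at 52.8% GC, and overlaps the opposite-strand gene Gm5106. The Abca1 window held 2 GC boxes, a TATAAA match starting 29 bases upstream and the LXR direct repeat starting 67 bases upstream, at 61.6% GC. The Abcc4 window held 3 GC boxes and 72.0% GC, against a median of 52.4% GC over all windows. The TEAD letters, through which YAP and TAZ act, were in none of these 3 windows and in 8 of the 45 windows of members, among them that of Abcb1a, a window (chr5:8566841-8567090) that lies far upstream of the gene start given above.

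After MCAo 1 of the 50 members passed the test in each genotype, and in both it was Abcb1b, which rose. In CTRL bECs the called share over all 31085 genes was 0.216% (0.183% higher), and in YT-iKO bECs 0.318% (0.277% higher), with edgeR's quasi-likelihood test at an adjusted p under 0.1. The shares rest on 67 and 99 called genes, and the members' share on this 1 gene. Over the 27 members above background the median log2 fold change was -0.10 in CTRL and -0.001 in YT-iKO, against 0.07 and -0.02 over all genes tested and -0.09 and 0.05 over the 9127 genes averaging 10 CPM or more. Of these 27 members 9 lay above 0 in CTRL and 13 in YT-iKO, against 57.1% and 47.6% of all genes and 32.3% and 61.0% of those 9127. At an unadjusted p under 0.05 there were 4 members in CTRL (3.5% of all genes) and 6 in YT-iKO (3.01%). When scaling factors came from the abundant genes alone, those averaging 10 CPM or more, the median over all genes moved to 0.21 in CTRL and -0.02 in YT-iKO.

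None of the 3 pumps passed the test after MCAo in either genotype. In CTRL bECs Abcb1a stood at 2295, 2271, 2361 and 2123 CPM after sham and at 2647, 1627, 1519 and 2320.2 CPM after MCAo. In YT-iKO bECs it stood at 2345, 2029.7, 1425 and 1886 CPM after sham and at 2236, 1205, 1728 and 2417 CPM after MCAo. The groups overlapped, and the 4 CTRL sham libraries lay closest together. The fold change of Abcb1a after MCAo was 0.897 in CTRL (95% interval 0.600 to 1.34) and 0.987 in YT-iKO (0.661 to 1.47).

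Abcc4 was 866, 889.6, 1138 and 945 CPM in CTRL sham and 1008, 694, 733 and 898 CPM in CTRL MCAo libraries. In YT-iKO it was 1045, 1108, 632 and 738 CPM after sham and 1142, 596, 724 and 1251 CPM after MCAo. Both pairs of groups overlapped. Its fold change was 0.869 in CTRL (95% interval 0.587 to 1.28) and 1.05 in YT-iKO (0.712 to 1.56).

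Abcg2 was 580.4, 572, 605 and 504 CPM in CTRL sham and 602, 413, 323 and 521 CPM in CTRL MCAo libraries. In YT-iKO it was 557, 557, 361 and 408 CPM after sham and 525, 237.8, 362 and 556 CPM after MCAo. The ranges overlapped in both genotypes. Its fold change was 0.822 in CTRL (95% interval 0.557 to 1.21) and 0.892 in YT-iKO (0.605 to 1.32).

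Outside CTRL sham, the lower pump values fell in libraries with a high receptor-gene density. In CTRL sham the lowest Abcb1a and Abcg2 values were in replicate 4, at a density of 0.155. Replicates 1 and 2 of that group had 0.184 and 0.195. YT-iKO MCAo replicate 2 and YT-iKO sham replicate 3 had the highest densities and the lowest values of all 3 pumps in their groups. CTRL MCAo replicates 2 and 3 likewise had the highest densities and the lowest pump values of their group. With the density as a covariate in edgeR, no pump passed after MCAo, with log2 fold changes of -0.13 and -0.15 for Abcb1a, -0.25 and -0.33 for Abcg2 and -0.15 and -0.08 for Abcc4 in CTRL and YT-iKO (adjusted p from 0.451 to 0.933). Set against the summed endothelial markers of the same library, the spread narrowed. Abcb1a was 13.6 ± 0.396 per 100 endothelial CPM in CTRL after sham and 13.0 ± 0.297 after MCAo, and 14.2 ± 0.483 and 13.6 ± 0.639 in YT-iKO (SD, n = 4). On that scale, chosen after seeing the data, the log2 change of Abcb1a after MCAo was -0.06 in CTRL and -0.07 in YT-iKO (exact two-sided permutation p = 0.0857 and 0.114, where 0.0286 is the smallest possible). For Abcg2 it was -0.19 in CTRL and -0.24 in YT-iKO (exact p = 0.0571 and 0.0857), and for Abcc4 -0.08 and 0.02 (exact p = 0.486 and 0.886). With limma-voom and sample quality weights, which called 24.2% of all genes in CTRL, all 3 pumps passed as lower after MCAo in CTRL, with log2 fold changes of -0.42 for Abcb1a, -0.48 for Abcg2 and -0.38 for Abcc4 (adjusted p = 0.0491, 0.0396 and 0.0746). In YT-iKO, where that fit called 18.1% of all genes, Abcg2 passed as lower too, at -0.52 (adjusted p = 0.0756).

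**Figure D2:**
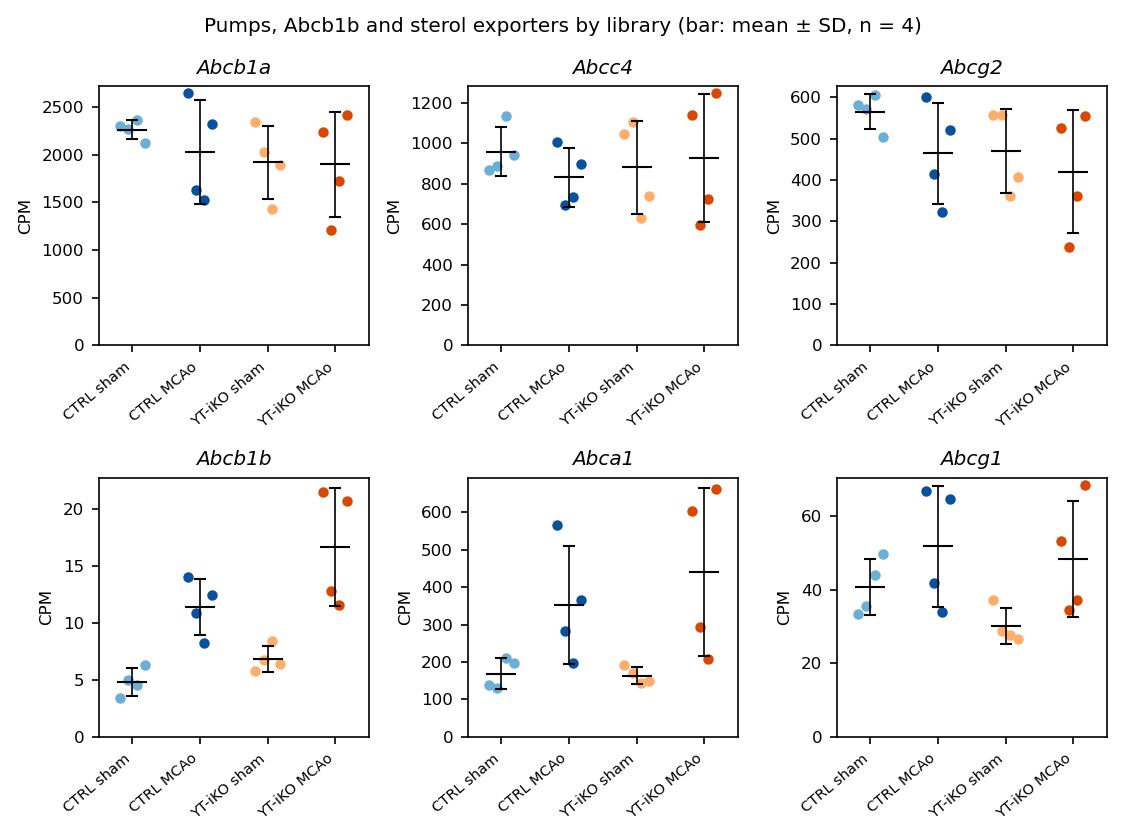
CPM of the 3 pumps, Abcb1b, Abca1 and Abcg1 in each of the 16 libraries (points, linear axes from 0), with the mean and SD of each group of 4. The pump groups overlap, the MCAo libraries of Abcb1b lie above the sham libraries of the same genotype, and Abca1 spreads widely after MCAo.

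Abcb1b (chr5:8798147-8866315, plus strand), the other P-glycoprotein gene, rose after MCAo from a level near background in both genotypes. In CTRL bECs it stood at 3.38, 5.01, 4.58 and 6.29 CPM after sham and at 14.1, 10.9, 8.25 and 12.5 CPM after MCAo. In YT-iKO bECs it stood at 5.78, 6.73, 8.45 and 6.38 CPM after sham and at 21.5, 12.9, 11.6 and 20.7 CPM after MCAo. All 4 MCAo libraries lay above all 4 sham libraries in each genotype, which held for 2.24% of all genes tested in CTRL and 0.807% in YT-iKO. The log2 fold change was 1.25 ± 0.26 in CTRL (SE, n = 4 and 4, edgeR adjusted p = 0.0496) and 1.29 ± 0.25 in YT-iKO (adjusted p = 0.0261), or 2.37-fold (95% interval 1.64 to 3.43) and 2.44-fold (1.7 to 3.5). The exact permutation p was 0.0286 in each, the smallest that 4 against 4 can give.

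The call depended on single libraries and, in YT-iKO, on the fit. With only the groups compared in edgeR it was lost in YT-iKO (adjusted p = 0.184, with 0.0624% of all genes called). In CTRL it was lost without CTRL sham replicate 1, 2 or 3 or CTRL MCAo replicate 1, 2 or 4 (adjusted p from 0.107 to 0.238), and in YT-iKO without YT-iKO sham replicate 1, 2 or 4 or YT-iKO MCAo replicate 1 (from 0.110 to 0.172), while the log2 fold change stayed between 1.05 and 1.43 with any 1 library left out. The counts were 53 to 131 in sham and 122 to 430 in MCAo libraries. The receptor-gene density, multiplied by the exon length, would account for 3.8 to 50.1 of them. After that share was taken off, Abcb1b was 3.37 ± 1.27 CPM after sham and 9.67 ± 3.13 after MCAo in CTRL, and 4.97 ± 0.476 and 14.8 ± 6.44 in YT-iKO (SD, n = 4), and the groups of each genotype still did not overlap.

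Abcb1b remained far below Abcb1a in every library. Per kilobase it was 0.147 ± 0.0428 per 100 of Abcb1a after sham and 0.391 ± 0.0444 after MCAo in CTRL, and 0.259 ± 0.103 and 0.610 ± 0.117 in YT-iKO (SD, n = 4). The MCAo libraries were above the sham libraries of their genotype here too. Abcb1b shares 11.2% of its 50-base stretches with other members, mostly Abcb1a, which did not pass the test. The summed fibroblast markers were also higher after MCAo in CTRL, without overlap, while in YT-iKO the groups overlapped. Of the 5 markers 5 had a log2 fold change above 0 in CTRL (median 0.79), 3 of them without overlap (2.24% of all genes). In YT-iKO 4 lay above 0 (median 0.74), and 0 passed the test in either genotype. Their sum was 16.9 to 19.1 CPM after sham and 26.0 to 31.4 after MCAo in CTRL, and 17.0 to 34.6 and 26.0 to 33.9 in YT-iKO. Of the 5 astrocyte markers 2, Gfap and Aldh1l1, were higher after MCAo without overlap in CTRL (2.24% of all genes) and 0 in YT-iKO (0.807%). The median log2 fold change over the 5 was 0.51 in CTRL and 0.26 in YT-iKO. Whether other cells contributed to the rise in Abcb1b was not tested.

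**Figure D3:**
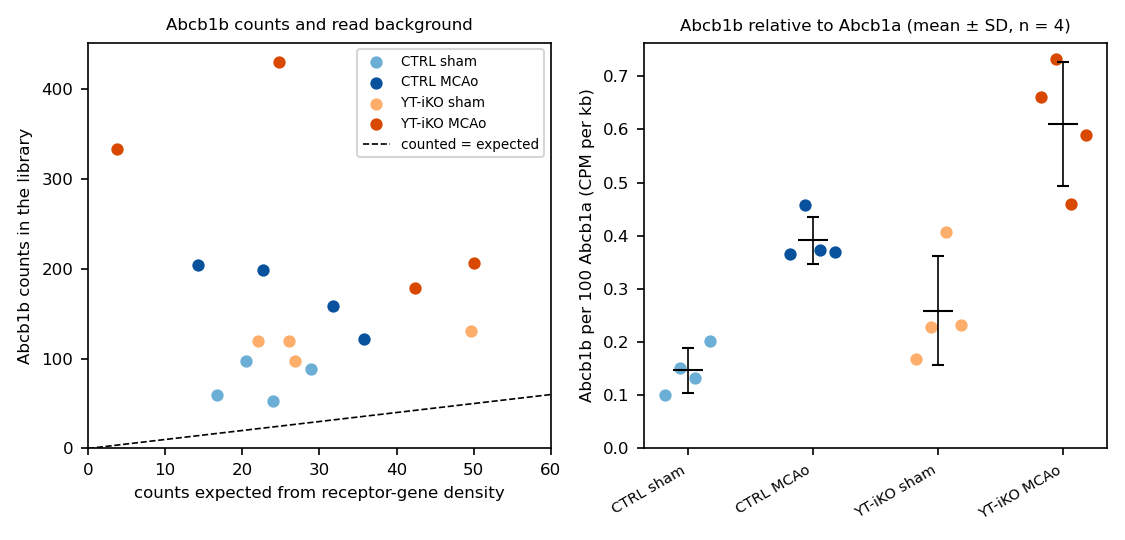
Left, Abcb1b counts in each library against the counts expected from the receptor-gene density (dashed line, counted equals expected). Right, Abcb1b per 100 of Abcb1a in CPM per kilobase, with mean and SD of 4 libraries. All 16 libraries lie above the line, and the MCAo libraries lie above the sham libraries of the same genotype in the right panel.

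Abca1 (chr4:53030787-53159895, minus strand) had the largest fitted change of all 50 members after MCAo in YT-iKO and the next largest after Abcb1b in CTRL, and did not pass the test in either. In CTRL bECs it stood at 138, 131, 209.9 and 198 CPM after sham and at 566, 283, 197 and 366 CPM after MCAo. In YT-iKO bECs it stood at 193, 169, 143 and 148 CPM after sham and at 604, 292, 209 and 661 CPM after MCAo. The groups overlapped in CTRL, through MCAo replicate 3, and did not in YT-iKO. The log2 fold change was 1.06 ± 0.34 in CTRL (SE, n = 4 and 4, edgeR adjusted p = 0.628) and 1.43 ± 0.34 in YT-iKO (adjusted p = 0.116), or 2.09-fold (95% interval 1.28 to 3.4) and 2.7-fold (1.65 to 4.42).

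Abca1 did pass in both genotypes with DESeq2 (adjusted p = 0.0838 in CTRL and 0.00226 in YT-iKO, with 1.11% and 1.25% of all genes called) and with the receptor-gene density as a covariate in edgeR (adjusted p = 0.00052 and 0.00036, with 2.47% and 1.75% called). Relative to the summed endothelial markers it was 1.02 ± 0.256 per 100 CPM in CTRL sham and 2.20 ± 0.502 in CTRL MCAo, and 1.23 ± 0.161 and 3.04 ± 0.897 in YT-iKO (SD, n = 4). On that scale neither pair of groups overlapped (exact permutation p = 0.0286 in each), as held for 4.88% of all genes in CTRL and 1.62% in YT-iKO. Abca1 shared none of its 50-base stretches with another gene. The part of the fibroblast, astrocyte and pericyte markers in the Abca1 values was not tested.

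Abcg1 (chr17:31057675-31117988, plus strand), which works beside Abca1 in cholesterol export, was 33.4, 35.5, 44.0 and 49.6 CPM in CTRL sham and 66.8, 41.7, 34.0 and 64.6 CPM in CTRL MCAo libraries. In YT-iKO it was 37.3, 28.8, 27.6 and 26.7 CPM after sham and 53.1, 34.3, 37.2 and 68.3 CPM after MCAo. The groups overlapped in each genotype. Its log2 fold change was 0.35 ± 0.25 in CTRL and 0.68 ± 0.25 in YT-iKO (SE, edgeR adjusted p = 1.00 and 0.889). In YT-iKO it passed with factors from abundant genes, with the covariate and without the 2 libraries of highest density (adjusted p = 0.0339, 0.0917 and 0.0524, with 1.72%, 1.75% and 1.53% of all genes called). The other members of the sterol and lipid group that were named for their level, Abca3 and Abca7, had log2 fold changes between -0.10 and 0.13 and did not pass.

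Abcc9 was 80.9, 68.8, 78.4 and 87.0 CPM in CTRL sham and 175, 129, 64.5 and 91.2 CPM in CTRL MCAo libraries. In YT-iKO it was 65.2, 63.8, 54.8 and 39.1 CPM after sham and 126, 56.2, 60.9 and 161 CPM after MCAo. The MCAo libraries of CTRL spanned the sham libraries, and in YT-iKO the groups overlapped, with 2 MCAo libraries above all sham libraries. The log2 fold change was 0.55 ± 0.32 in CTRL and 0.86 ± 0.32 in YT-iKO (SE, edgeR adjusted p = 1.00 and 0.916). Abcc9 passed as higher under 1 of 11 other settings in each genotype. Its channel partner Kcnj8 had log2 fold changes of 0.74 and 0.80, also not called in the main fit. In CTRL it passed as higher with limma-voom, only the groups compared and the receptor-gene density as a covariate (adjusted p = 0.0457, 0.0913 and 0.0744). These fits called 24.2%, 2.52% and 2.47% of all genes. Between genotypes after MCAo, limma-voom called Kcnj8 lower in YT-iKO (adjusted p = 0.0637, with 0.827% of all genes called). The pericyte markers, Kcnj8 among them, summed to 726.9 to 920.6 CPM after sham and 539.7 to 1444 after MCAo in CTRL, and 545.4 to 877.2 and 492.0 to 1179 in YT-iKO. Of the 9 markers 7 had a log2 fold change above 0 after MCAo in CTRL (median 0.39) and 8 in YT-iKO (median 0.60), and 0 passed the test. Their part in the Abcc9 values was not tested.

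Among the other exporters Abcc6 and Abcg3 had lower means after MCAo without passing the test. Abcc6 was 158, 155, 154 and 126 CPM in CTRL sham and 121, 104, 102 and 128 CPM in CTRL MCAo libraries, and 132, 193, 79.4 and 119.7 CPM and 75.6, 80.7, 81.1 and 124 CPM in the same groups of YT-iKO. Abcg3 was 18.8, 20.5, 25.5 and 14.9 CPM in CTRL sham and 17.1, 11.6, 13.0 and 12.8 CPM in CTRL MCAo libraries, and 16.4, 23.1, 13.6 and 18.4 CPM and 10.02, 14.4, 12.5 and 15.6 CPM in YT-iKO. Their groups overlapped in both genotypes. The log2 fold changes in CTRL and YT-iKO were -0.38 and -0.54 for Abcc6 and -0.55 and -0.45 for Abcg3 (SE 0.21 to 0.24, edgeR adjusted p = 1.00 in each). Abcc6 did pass in YT-iKO with limma-voom, with the receptor-gene density as a covariate and without the 2 libraries of highest density (adjusted p = 0.0195, 0.0313 and 0.0966). These fits called 18.1%, 1.75% and 1.53% of all genes. Abcg3 passed in both genotypes with limma-voom (adjusted p = 0.00934 in CTRL and 0.0806 in YT-iKO), which called 24.2% and 18.1% of all genes.

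Of the members that serve organelles and ribosomes, the 4 ABCE and ABCF proteins had log2 fold changes between -0.24 and -0.02 in CTRL and between -0.08 and 0.14 in YT-iKO. Abcd3 had -0.16 in CTRL and 0.13 in YT-iKO, and Abcd4 0.02 and -0.001. Abcb8, a mitochondrial protein, had 0.49 (95% interval 0.018 to 0.963, not adjusted) and 0.18, and Abcb9 -0.19 and -0.24. None of these genes passed the test in either genotype. The share of the 3 pumps in the summed CPM per kilobase of all members was 72.4% ± 1.08 after sham and 68.7% ± 1.19 after MCAo in CTRL, and 70.5% ± 2.08 and 67.7% ± 3.37 in YT-iKO (SD, n = 4).

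**Figure D4:**
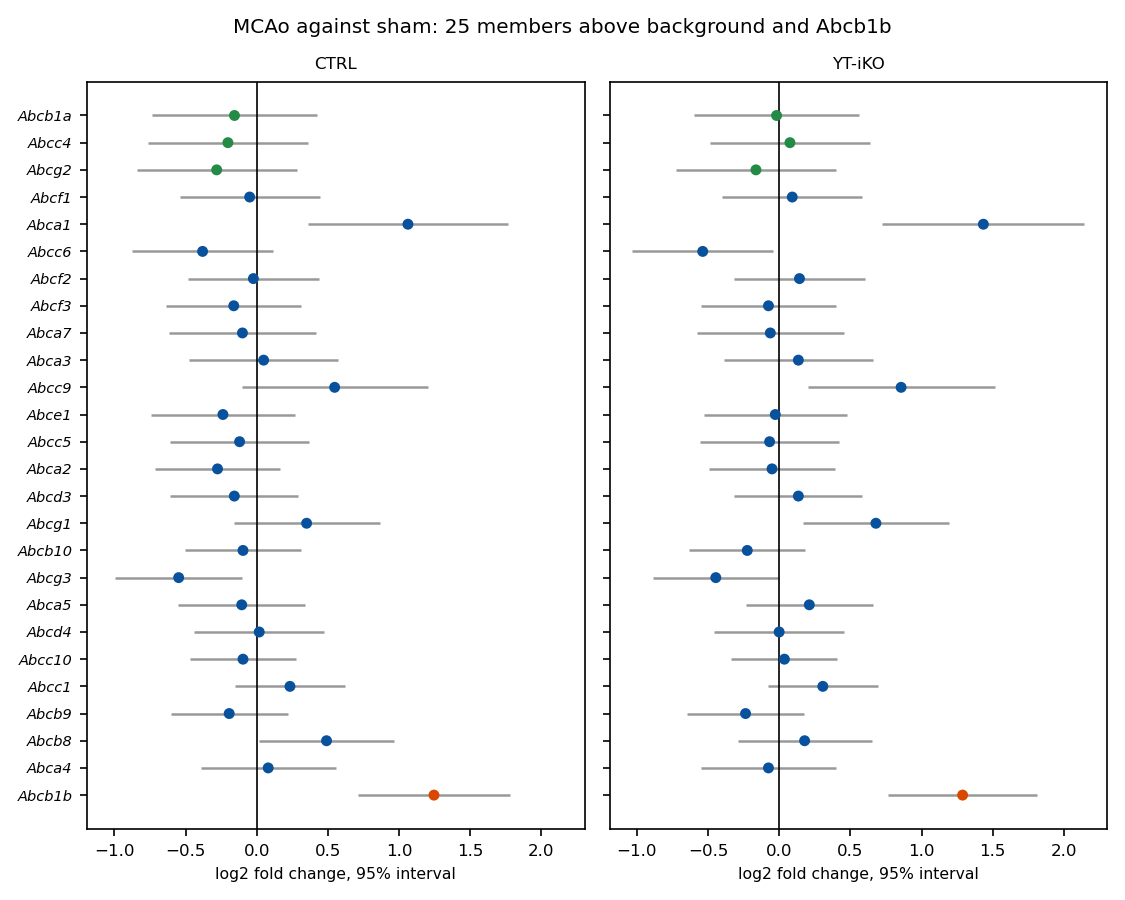
Log2 fold change after MCAo with its 95% interval for 25 members above background in all groups and Abcb1b, in CTRL (left) and YT-iKO (right), ordered by level with Abcb1b last. Green points are the 3 pumps, whose intervals span 0, and the orange point is Abcb1b, the only member called. Intervals that are not adjusted also miss 0 for Abca1 in both panels, for Abcb8 and Abcg3 in CTRL and for Abcc9, Abcg1, Abcc6 and Abcg3 in YT-iKO.

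The loss of YAP and TAZ called no member, either after sham or after MCAo. The called share over all genes was 0.0965% after sham and 0.0708% after MCAo, which would be less than 1 gene in 50. At an unadjusted p under 0.05 there were 0 members after sham (2.16% of all genes) and 1, Abcb1b, after MCAo (1.49%). DESeq2 called 0 members in each, with 0.42% and 0.461% of all genes. The fold change of Abcb1a between YT-iKO and CTRL was 0.850 after sham (95% interval 0.569 to 1.27) and 0.935 after MCAo (0.626 to 1.40). That of Abcc4 was 0.919 (0.621 to 1.36) and 1.11 (0.753 to 1.65), and that of Abcg2 0.833 (0.564 to 1.23) and 0.904 (0.613 to 1.33). Over the 27 members above background the median log2 fold change was -0.16 after sham and -0.09 after MCAo, against 0.11 and 0.03 over all genes and -0.13 and 0.007 over the 9127 genes averaging 10 CPM or more. With scaling factors from the abundant genes the median over all genes was 0.30 and 0.08.

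Abcb1b had higher means in YT-iKO than in CTRL bECs under both operations, with overlapping libraries in CPM. Its log2 fold change was 0.50 ± 0.26 after sham and 0.55 ± 0.25 after MCAo (SE, edgeR adjusted p = 0.990 and 1.00). Relative to the summed endothelial markers Abcb1b was 0.0741 ± 0.00851 per 100 CPM in CTRL MCAo and 0.120 ± 0.0195 in YT-iKO MCAo (SD, n = 4), without overlap (exact permutation p = 0.0286), as held for 3.53% of all genes on that scale, while after sham the groups overlapped (exact p = 0.0571). Of the 9 endothelial markers in the denominator 8 had a log2 fold change below 0 between genotypes after MCAo, and all 9 after sham. Per 100 of Abcb1a the MCAo groups met without overlap, the highest CTRL library at 0.458 and the lowest YT-iKO library at 0.459. In CPM, Abcc9 after sham was the only member whose genotype groups did not overlap, with 39.1 to 65.2 CPM in YT-iKO against 68.8 to 87.0 CPM in CTRL. Of all genes tested, 2.22% were lower without overlap in that comparison. The log2 fold change of Abcc9 was -0.50 ± 0.32 (SE, edgeR adjusted p = 0.990). Of the 9 pericyte markers 2 had a log2 fold change above 0 in that comparison, with a median of -0.33, and their sum averaged 665.8 CPM in YT-iKO and 847.0 CPM in CTRL. Abca7 had means of 118 ± 28.2 CPM in YT-iKO sham and 98.8 ± 5.67 in CTRL sham (SD, n = 4), a log2 fold change of 0.26 ± 0.25 that passed only when scaling factors came from the abundant genes (edgeR adjusted p = 0.0871, with 0.37% of all genes called).

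The response to MCAo did not differ detectably between genotypes for any member. In the interaction test 0 of 50 members and 0.0% of all genes passed, with 116 genes (0.373%) and 0 members at an unadjusted p under 0.05 in edgeR and 0 genes called by DESeq2. For Abcb1b the ratio of the YT-iKO to the CTRL response was 1.03 (95% interval 0.615 to 1.72), and the sign of its log2 value turned under several settings, from -0.24 with limma-voom to 0.23 at the other end. For Abca1 the log2 difference was 0.37 (-0.61 to 1.36), and for the pumps it was 0.14 (Abcb1a), 0.12 (Abcg2) and 0.28 (Abcc4). The smallest unadjusted p values in that edgeR test belonged to Abcg4, Abca5 and Abcc3 (0.289, 0.306 and 0.328).

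**Figure D5:**
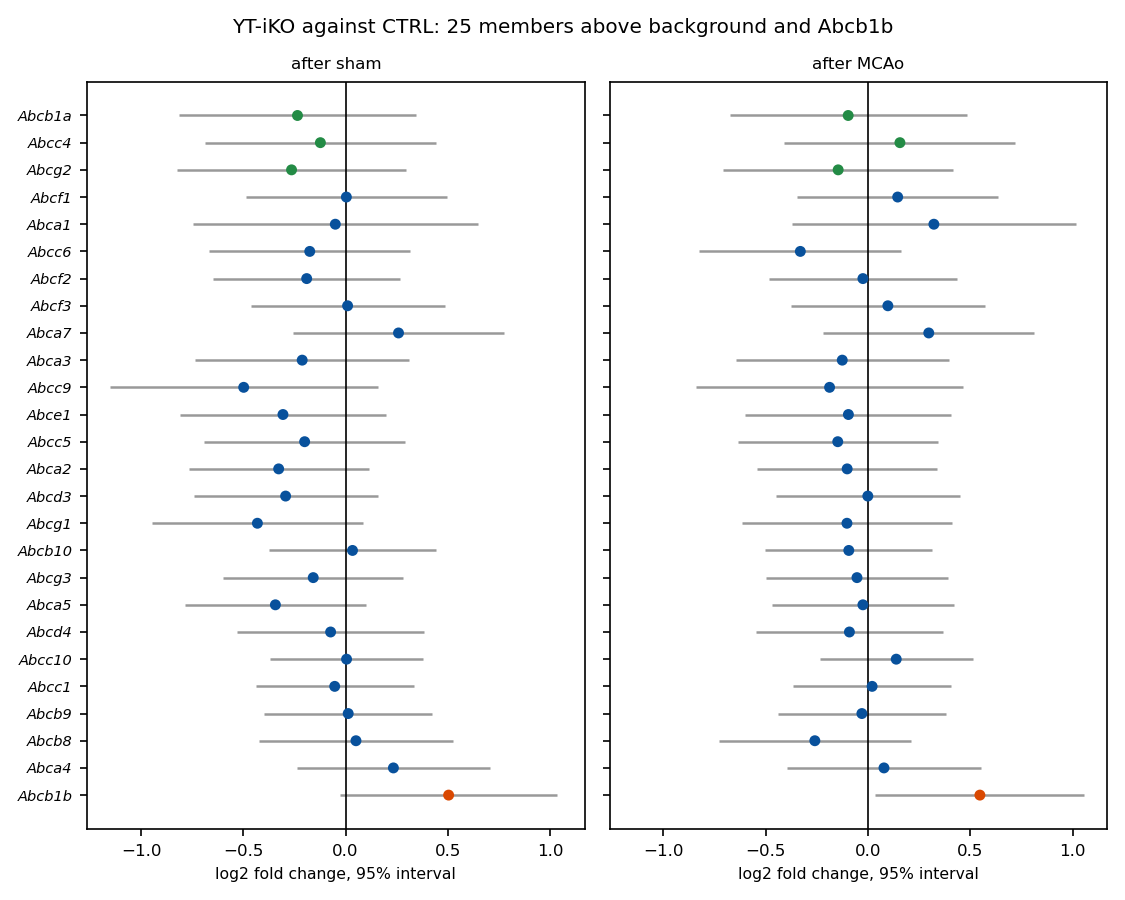
Log2 fold change of YT-iKO against CTRL with its 95% interval for the same genes after sham (left) and after MCAo (right). Green points are the 3 pumps and the orange point is Abcb1b. All intervals shown span 0 after sham, and after MCAo only that of Abcb1b, which is not adjusted, lies above 0.

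The 23 genes chosen as partners of the family were measured beside it, and 0 of 23 passed edgeR's test in any of the 5 comparisons, with 3 after sham (2.16% of all genes) and 4 after MCAo (1.49%) between genotypes, 4 in CTRL (3.5%) and 3 in YT-iKO (3.01%) after MCAo and 0 in the interaction (0.373%) at an unadjusted p under 0.05. The barrier's uptake carriers had lower means in YT-iKO than in CTRL bECs under both operations, and so did the endothelial markers, of which 0 of 9 had a log2 fold change above 0 after sham (median -0.39) and 1 of 9 after MCAo (median -0.14). Slco1a4, an organic anion carrier, was 2889 ± 333 CPM in CTRL sham and 1596 ± 424 in YT-iKO sham (SD, n = 4), with no overlap and a log2 fold change of -0.86 ± 0.29 (SE, edgeR adjusted p = 0.990). It passed as lower with limma-voom, with factors from abundant genes and with the receptor-gene density as a covariate (adjusted p = 0.0172, 0.0139 and 0.0179, with 0.46%, 0.37% and 0.466% of all genes called). The other carriers Slco1c1, Slco2b1 and Slc22a8 had log2 fold changes of -0.68, -0.49 and -0.46 in that comparison, and Slco1c1 did not overlap either (2.22% of all genes). After MCAo the genotypes differed by -0.83 for Slco1a4, -0.66 for Slco1c1, -0.58 for Slco2b1 and -0.74 for Slc22a8 on the log2 scale, all 4 at an unadjusted p under 0.05, and only Slc22a8 did not overlap (0.412% of all genes were lower without overlap). From sham to MCAo Slc22a8 had log2 fold changes of -0.63 in CTRL and -0.91 in YT-iKO, without overlap in either, as held for 1.9% and 0.489% of all genes. Of the 4 carriers 1, Slco2b1, lay above 0 after MCAo, at 0.55 in CTRL and 0.46 in YT-iKO. In CTRL it passed as higher with factors from abundant genes and with the covariate (adjusted p = 0.0105 and 0.0185). These 2 fits called 1.78% and 2.47% of all genes, and Slc22a8 passed as lower in both (adjusted p = 0.0546 and 0.0240). DESeq2 called Slc22a8 lower in YT-iKO than in CTRL after MCAo and lower after MCAo in YT-iKO (adjusted p = 0.0840 and 0.00343). All 4 carriers passed as lower in YT-iKO after MCAo with factors from abundant genes (adjusted p from 0.00473 to 0.0372, with 0.582% of all genes called) and with the receptor-gene density as a covariate (from 0.00336 to 0.0171, with 0.856% called). Of the LXR genes, Nr1h3 was 8.29 ± 0.317 CPM in CTRL sham and 11.8 ± 2.52 in CTRL MCAo, and 6.71 ± 0.181 and 10.3 ± 3.93 in YT-iKO. Its groups did not overlap in CTRL (2.24% of all genes were higher without overlap) and overlapped in YT-iKO. It passed as higher in CTRL with limma-voom and the covariate (adjusted p = 0.0624 and 0.09995, 24.2% and 2.47% of all genes called). In YT-iKO it did so without the 2 libraries of highest density (adjusted p = 0.0542, 1.53% called). After MCAo Nr1h2 had log2 fold changes of -0.04 and 0.04, and limma-voom called it lower in YT-iKO (adjusted p = 0.0656, 18.1% called). Other LXR targets, Srebf1, Mylip and Lpcat3, had log2 fold changes after MCAo of 0.10, 0.22 and 0.43 in CTRL and 0.30, 0.41 and 0.42 in YT-iKO. Of the 13 regulators and LXR targets 9 lay above 0 in CTRL (median 0.12) and 12 in YT-iKO (median 0.17). The shares above 0 were 57.1% and 47.6% over all genes, and 32.3% and 61.0% over genes averaging 10 CPM or more. Apoe, the lipoprotein that takes up the exported cholesterol, had -0.08 and 0.35. After sham Apoe was 191 to 254 CPM in YT-iKO and 296 to 465 CPM in CTRL, without overlap (2.22% of all genes). There it passed as lower with limma-voom, factors from abundant genes, only the groups compared and the covariate (adjusted p = 0.0324, 0.0934, 0.0372 and 0.0436). These fits called 0.46%, 0.37%, 0.506% and 0.466% of all genes. Tap1, Tap2 and Cftr, ABC proteins under other names, had edgeR log2 fold changes after MCAo between 0.06 and 0.31 in both genotypes. Cftr had only 4 to 86 counts per library. Limma-voom called it higher after MCAo in YT-iKO, at 1.37 (adjusted p = 0.0488, 18.1% of all genes called).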

How the data were processed

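The deposited table holds whole-number counts of reads per gene for 16 libraries. Per the study's methods the authors prepared them with the SMART-Seq Ultra Low Input kit and mapped paired-end reads to GRCm38 with STAR 2.7.8a. The counting program and strand setting are not given in the sources used here. No gene in the table had fewer than 3 libraries with 5 or more counts. The family was chosen for description, and the gene lists were written, with earlier results of these data known. Groups came from the sample labels.

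Counts were fitted with edgeR 4.0.16 (TMM factors, filterByExpr with a minimum count of 10, quasi-likelihood test) in a 4-group model of all 16 libraries, and p-values were adjusted by Benjamini-Hochberg over 31085 genes, with a threshold of 0.1. The replicate labels do not say whether numbers mark shared days, and p-values measure only the spread between pools. Single genes were also tested by exact permutation of log2(CPM + 1) over 70 assignments. CPM used TMM factors, while the background rule, its ratios to the threshold and the receptor-gene densities used library totals without them. Exon lengths came from GENCODE M21 by gene identifier (36861 of 37003 matched), a later release than the one the study mapped with, so levels per kilobase carry any change in gene models, and antisense or duplicated stretches were counted among its transcripts. Named genes were the 3 pumps and Abcb1b, called members, up to 3 members per role with the highest level above background and, in each comparison, the 3 with the smallest p. Alternatives used DESeq2 1.42.0, limma 3.58.1 and other filters, factors and samples. Library totals limit what can be seen of low genes. Values of 2 members are not reported here; both stay in the fits and counts.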

Additional observations from a re-analysis of the deposited data

Results flagged for a closer look

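In 5 of the 104 groups of 4 libraries examined, 1 library stood apart from the other 3, where chance alone gives about 1 in 20. In CTRL sham the highest library was at 160.7 CPM for Abca3, at 6.359 CPM for Abcc3 and at 26.73 CPM for Abcd4, and the lowest was at 125.8 CPM for Abcc6. In YT-iKO MCAo the highest library was at 123.8 CPM for Abcc6. CTRL sham replicate 4 was the library in question for Abcc3, Abcd4 and Abcc6, CTRL sham replicate 3 for Abca3 and YT-iKO MCAo replicate 4 for Abcc6. The Abcc3 level is near background.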

How the results depend on the processing

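The count of members called depended on the fit. After MCAo in CTRL the 1 call of edgeR became 2 with DESeq2, with scaling factors from genes of at least 10 CPM, with only the groups compared, with the receptor-gene density as a covariate and without the 2 libraries of highest density, each time Abcb1b and Abca1. It became 23 (12 higher, 11 lower) with limma-voom. These fits called 1.11%, 1.78%, 2.52%, 2.47%, 1.19% and 24.2% of all genes. After MCAo in YT-iKO the 1 call became 2 with DESeq2, RLE factors and a filter of CPM above 1 in 4 libraries, 3 with factors from abundant genes, 4 with the covariate, 5 without the 2 densest libraries, 19 (8 higher, 11 lower) with limma-voom and 0 with only the groups compared, where Abcb1b had an adjusted p of 0.184. The shares over all genes were 1.25%, 0.354%, 0.536%, 1.72%, 1.75%, 1.53%, 18.1% and 0.0624%. Leaving out 1 library gave 0 to 1 calls in CTRL and 0 to 2 in YT-iKO, where Abca1 was called without YT-iKO MCAo replicate 2 or 3 or CTRL MCAo replicate 1 or 3 (adjusted p from 0.0196 to 0.0652). Between genotypes 1 member was called after sham with factors from abundant genes (Abca7, higher, 0.37% of all genes) and 1 after MCAo with limma-voom (Abcc9, lower, 0.827%). The cause of these shifts was not tested.

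The labels give the groups shared replicate numbers. Same-numbered libraries had a median correlation of 0.199 over 24 pairs, against -0.115 over 72 other pairs. Of the 24 pairs 15 were above 0.1 and 9 at or below it, and 6 of 16 libraries correlated best with their own number. These values do not settle whether the numbers mark a pairing, and the main tests of the report use none. With the replicate block 2 members (Abcb1b and Abca1) were called after MCAo in YT-iKO (0.425% of all genes), 1 in CTRL (0.383%) and 0 in the other comparisons.

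Signs turned for small log2 values that passed no test. Without the 2 densest libraries Abcb1a was 0.043 between genotypes after MCAo and 0.070 after MCAo in YT-iKO, and Abcg2 was 0.014 between genotypes after MCAo. With the covariate the difference in response was -0.016 for Abcb1a, -0.075 for Abcg2 and -0.095 for Abcb1b, Abcc4 after MCAo in YT-iKO was -0.078 and Abca1 between genotypes after sham 0.120. With limma-voom the difference was -0.032 for Abcg2, -0.239 for Abcb1b and -0.219 for Abca1, Abcc4 was -0.045 between genotypes after MCAo and -0.339 after MCAo in YT-iKO, and Abca1 was 0.014 and -0.205 between genotypes after sham and MCAo. With factors from abundant genes the difference was -0.034 for Abcg2 and -0.165 for Abcb1b, and Abcc4 and Abca1 between genotypes after sham were 0.0061 and 0.103. The Abcb1b difference was -0.00046 with RLE factors, -0.020 with no filter and -0.0099 with the CPM filter, and Abcc4 after MCAo in YT-iKO was -0.015 with only the groups compared. Relative to the endothelial markers, between genotypes, Abcb1a was 0.068 after sham and 0.059 after MCAo, and Abcg2, Abcc4 and Abca1 after sham were 0.038, 0.171 and 0.295. With 1 library left out the ranges crossing 0 after sham between genotypes were -0.255 to 0.011 for Abcc4 and -0.164 to 0.076 for Abca1, and after MCAo -0.269 to 0.043 for Abcb1a, -0.361 to 0.021 for Abcg2 and -0.055 to 0.285 for Abcc4. After MCAo in YT-iKO they were -0.194 to 0.119 for Abcb1a, -0.381 to 0.003 for Abcg2 and -0.135 to 0.208 for Abcc4, and for the difference -0.043 to 0.276 for Abcb1a, -0.106 to 0.284 for Abcg2 and -0.204 to 0.187 for Abcb1b. Of 1146 recomputed values of named members 1041 kept direction and side of the threshold, 36 newly passed, 11 no longer passed and 58 turned sign.

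The members above background in all groups numbered 26 at the 99th percentile, 27 with olfactory genes alone and 32 at a CPM of at least 1. Settings without the densest libraries and those relative to endothelial markers were chosen after seeing the data. At 11418262 to 23074547 counts, members near the receptor-gene density could not be separated from stray reads.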
